A study of Homo sapiens with 12 samples.

Results

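N/TERT-2G keratinocytes, a human keratinocyte line immortalised with telomerase, were compared after transfection with an siRNA against CXCL14 and after transfection with a negative control siRNA. The 6 libraries of these 2 groups, 3 per group, were taken from a series of 12 libraries by the target named in their labels, and all genes of the count table were considered. Cells grown to 40 to 50% confluency in 6-well plates were given 100 pmol of the siRNA per well with 5 μl of Lipofectamine 2000, and the medium was replaced after 6 h. The other 6 libraries received siRNA against ATF3 or APOE in the same way, and every group shares the line, the transfection and the medium change. The labels do not state the siRNA sequences, the time of harvest or whether replicates were separate cultures, so that p-values reflect only how much the libraries vary, which may be technical. The series title places the knockdowns in a study of vulvar lichen sclerosus, a chronic inflammatory skin disease.

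CXCL14 is a chemokine that epithelia secrete constitutively and that attracts myeloid and natural killer cells. In skin it is made by keratinocytes and has been described as antimicrobial. An siRNA works as a duplex whose guide strand is loaded into Argonaute and directs cleavage of a fully complementary messenger RNA. A guide can also lower other transcripts, as a microRNA does, when bases 2 to 8 of the guide pair with a 7-base site in the 3′ UTR. Unless stated otherwise, levels are CPM, counts scaled to library size with TMM factors, and are listed in the order of replicates 1, 2 and 3. Differences are log2 fold changes of CXCL14 siRNA against control siRNA ± SE from edgeR's quasi-likelihood fit (n = 3 per group), and a gene was called at a Benjamini-Hochberg adjusted p under 0.05.

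Total counts ran from 16225691 to 21377538 over the 6 libraries, and a count of 3, the limit taken for a count of 0, corresponded to 0.136 to 0.186 CPM. Log2 CPM of 2 libraries correlated at 0.990 to 0.992 within groups and at 0.954 to 0.961 between the groups, over genes, which are not replicates. The 10 most abundant genes took 6.8 to 6.87% of the counts with control siRNA and 5.80 to 6.01% with CXCL14 siRNA. Keratinocyte markers were abundant in both groups, at 22700 to 25500 summed CPM with control siRNA and 16200 to 16700 CPM with CXCL14 siRNA over 6 markers, of which 0 rose and 5 fell. DSP was not called (0.02). Over all tested genes 27.4% rose and 28.4% fell.

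CXCL14 (ENSG00000145824, chr5:135570679-135579279) was close to the detection limit in the control cells. It had 7, 6 and 11 counts with control siRNA, or 0.423, 0.365 and 0.682 CPM, and 1, 1 and 0 counts with CXCL14 siRNA. The groups did not overlap, and the difference was -3.61 ± 1.16, adjusted p = 0.0143. Summed over libraries and scaled by library size, 2 counts against 24 are 6.89% of the control level, with an exact 95% interval of 0.789 to 27.7% that covers counting error only. An exact two-sided permutation test of the CPM gave p = 0.1, the smallest value that 3 against 3 libraries allow. CXCL14 passed the filter on low counts through the other libraries, mainly those with APOE siRNA (a mean of 8.56 CPM), and did not pass it in the 6 libraries of these 2 groups alone. The call was lost without control replicate 3 (adjusted p = 0.0523) and without CXCL14 siRNA replicate 3 (adjusted p = 0.0579). ATF3, a stress-induced transcription factor, had 43, 43 and 40.5 CPM with control siRNA and 64.1, 71.6 and 69.3 CPM with CXCL14 siRNA, and rose (0.70 ± 0.07, adjusted p = 4.96e-07). APOE, the lipid carrier of lipoproteins, had 2.78, 3.59 and 3.16 CPM with control siRNA and 5.48, 5.78 and 6.37 CPM with CXCL14 siRNA, and also rose (0.89 ± 0.20, adjusted p = 0.00144).

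The difference between the groups was broad, with 55.8% of the tested genes called. Of 14920 genes tested, 4087 rose (27.4%) and 4240 fell (28.4%). At least 2-fold changes were fewer and more often falls, with 832 genes higher (5.58%) and 1328 lower (8.90%), and 176 genes rose and 189 fell at least 4-fold. The CPM of the 2 groups did not overlap for 4631 higher genes (31.0%) and 4636 lower genes (31.1%). The median over all tested genes was 0.01, and the median size of a called difference was 0.60. Protein-coding genes were called more often (59.8% of 12665) than lincRNAs (37% of 478) or antisense transcripts (30.5% of 606).

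**Figure D1:**
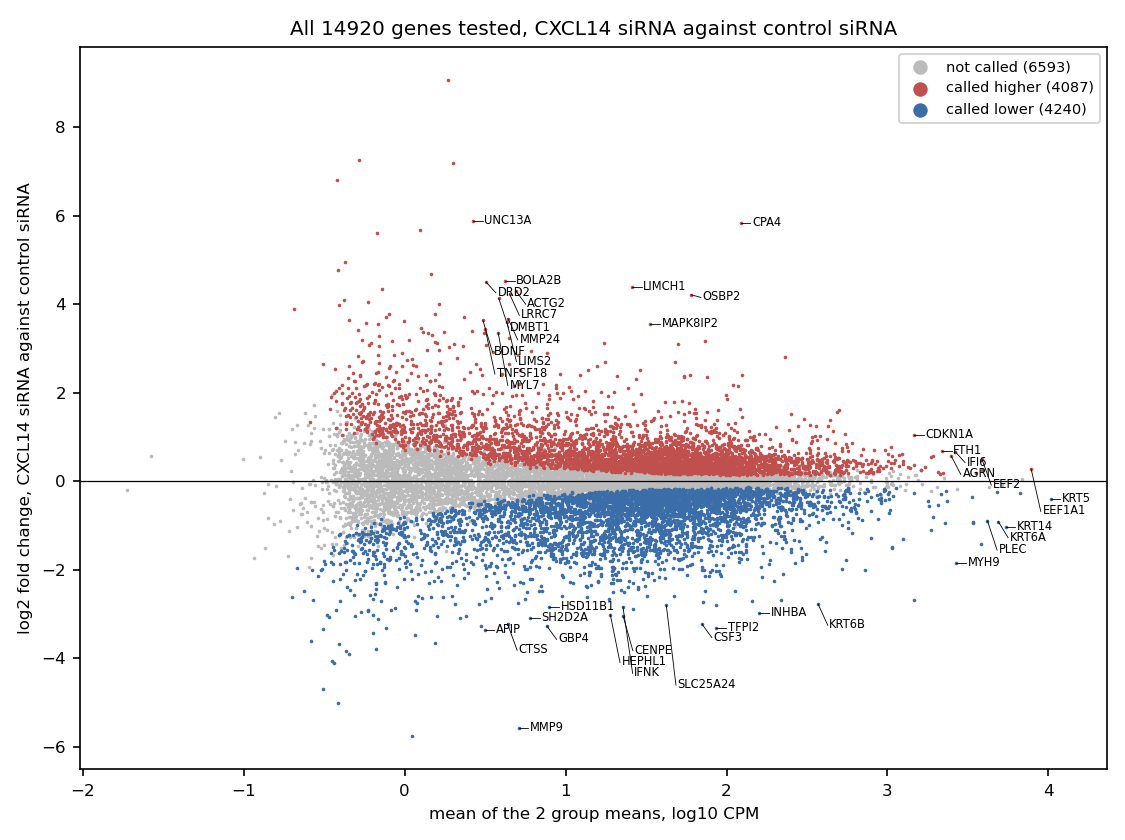
Log2 fold change (vertical axis) against the mean of the 2 group means in log10 CPM (horizontal axis) for the 14920 genes tested, coloured by call, with genes of large fold change or large difference in CPM named. Called genes number 4087 above and 4240 below 0, CPA4 stands alone among genes near 100 CPM at 5.85, and KRT14, MYH9 and KRT6A are among the abundant genes that fell.

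Among the 15 protein-coding genes with the largest rises, CPA4 (chr7:130293134-130324180) was the most abundant. CPA4, a secreted carboxypeptidase, had 2.48, 4.13 and 5.95 CPM with control siRNA and 239, 234 and 251 CPM with CXCL14 siRNA (5.85 ± 0.20, adjusted p = 3.42e-12). All 3 treated libraries stood far above all 3 controls, and the level was 10.3 CPM with ATF3 siRNA and 21.9 CPM with APOE siRNA. OSBP2, an oxysterol-binding protein, had 5.38, 5.65 and 7.44 CPM with control siRNA and 104, 118 and 122 CPM with CXCL14 siRNA (4.22 ± 0.15, adjusted p = 3.96e-12). LIMCH1, an actin-associated protein that activates non-muscle myosin, went from 3.02, 1.82 and 2.23 CPM to 49.4, 51.3 and 47.6 CPM (4.38 ± 0.15, adjusted p = 3.96e-12). MAPK8IP2, a scaffold of the JNK pathway best known from brain, went from 4.41, 4.86 and 6.38 to 52.5, 64.3 and 68.8 CPM (3.57 ± 0.21, adjusted p = 7.79e-10). These 4 genes were detected in every control library.

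The other large rises came from transcripts with low levels in control cells. UNC13A, which primes synaptic vesicles, had 4, 0 and 0 counts with control siRNA and 102, 113 and 93 counts with CXCL14 siRNA. The dopamine receptor gene DRD2 had 0.302, 0.243 and 0.248 CPM with control siRNA and 5.91, 6.81 and 5.74 CPM with CXCL14 siRNA (4.50 ± 0.28). LRRC7, a protein of the postsynaptic density, rose by 4.23 and BDNF, a neurotrophin, by 3.64. Contractile genes were also among them, with ACTG2, the enteric smooth muscle actin, at 0.605, 0.608 and 0.186 CPM against 6.75, 10.7 and 10.6 CPM (4.30 ± 0.34) and MYL7, the atrial myosin light chain, at 0.665, 0.790 and 0.558 against 5.43, 7.46 and 7.96 CPM (3.36 ± 0.35). DMBT1, a secreted mucosal scavenger receptor protein (4.14), the membrane-type metalloproteinase MMP24 (3.68), the focal adhesion adaptor LIMS2 (3.60) and TNFSF18, the ligand of the receptor GITR (3.44), rose as well. BOLA2B was the least even, at 7.54, 3.70 and 12.9 CPM, and shares its sequence with a near-identical copy, so that its value is uncertain (4.52 ± 1.33, adjusted p = 0.00841).

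The 15 largest falls, 14 of which are reported, held secreted and inflammatory proteins and a mitotic kinesin. MMP9, a gelatinase of the wound edge (chr20:46008908-46016561), had 9.97, 10.1 and 9.98 CPM with control siRNA and 0.264, 0.218 and 0.136 CPM with CXCL14 siRNA, from 165, 166 and 161 counts to 5, 4 and 3 (-5.58 ± 0.24, adjusted p = 2.98e-11). The level of MMP9 was 37.5 CPM with ATF3 siRNA and 4.71 CPM with APOE siRNA. INHBA, which encodes the activin A subunit, had 317, 279 and 256 CPM with control siRNA and 37.5, 37 and 33.9 CPM with CXCL14 siRNA (-2.97 ± 0.11, adjusted p = 4.2e-12). In both of these genes the 2 groups stood well apart, with every treated library below every control library.

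SLC25A24, a calcium-regulated carrier of ATP in the mitochondrial inner membrane, had 79.1, 73.3 and 69.3 CPM with control siRNA and 11.4, 10.7 and 9.58 CPM with CXCL14 siRNA (-2.81 ± 0.09, adjusted p = 1.81e-12). TFPI2, a secreted inhibitor of serine proteases, had 163, 150.4 and 158 CPM with control siRNA and 16.1, 14.2 and 17.1 CPM with CXCL14 siRNA (-3.31 ± 0.09, adjusted p = 4.73e-13). KRT6B, a keratin of activated and wounded epidermis (chr12:52446651-52452126), had 630.0, 664 and 646 CPM with control siRNA and 92.5, 95.5 and 95.8 CPM with CXCL14 siRNA (-2.77 ± 0.06, adjusted p = 1.13e-13). KRT6B had the smallest adjusted p of the named falls. The others reported were the granulocyte growth factor CSF3 (-3.23), the interferon-inducible GTPase GBP4 (-3.27), the protease cathepsin S, CTSS (-3.22), the kinesin CENPE (-3.04), the adaptor SH2D2A (-3.08), the methionine salvage enzyme APIP (-3.35), the ferroxidase HEPHL1 (-3.01), the cortisone-activating enzyme HSD11B1 (-2.84) and interferon kappa, IFNK (-2.84), a type I interferon made by keratinocytes.

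**Figure D2:**
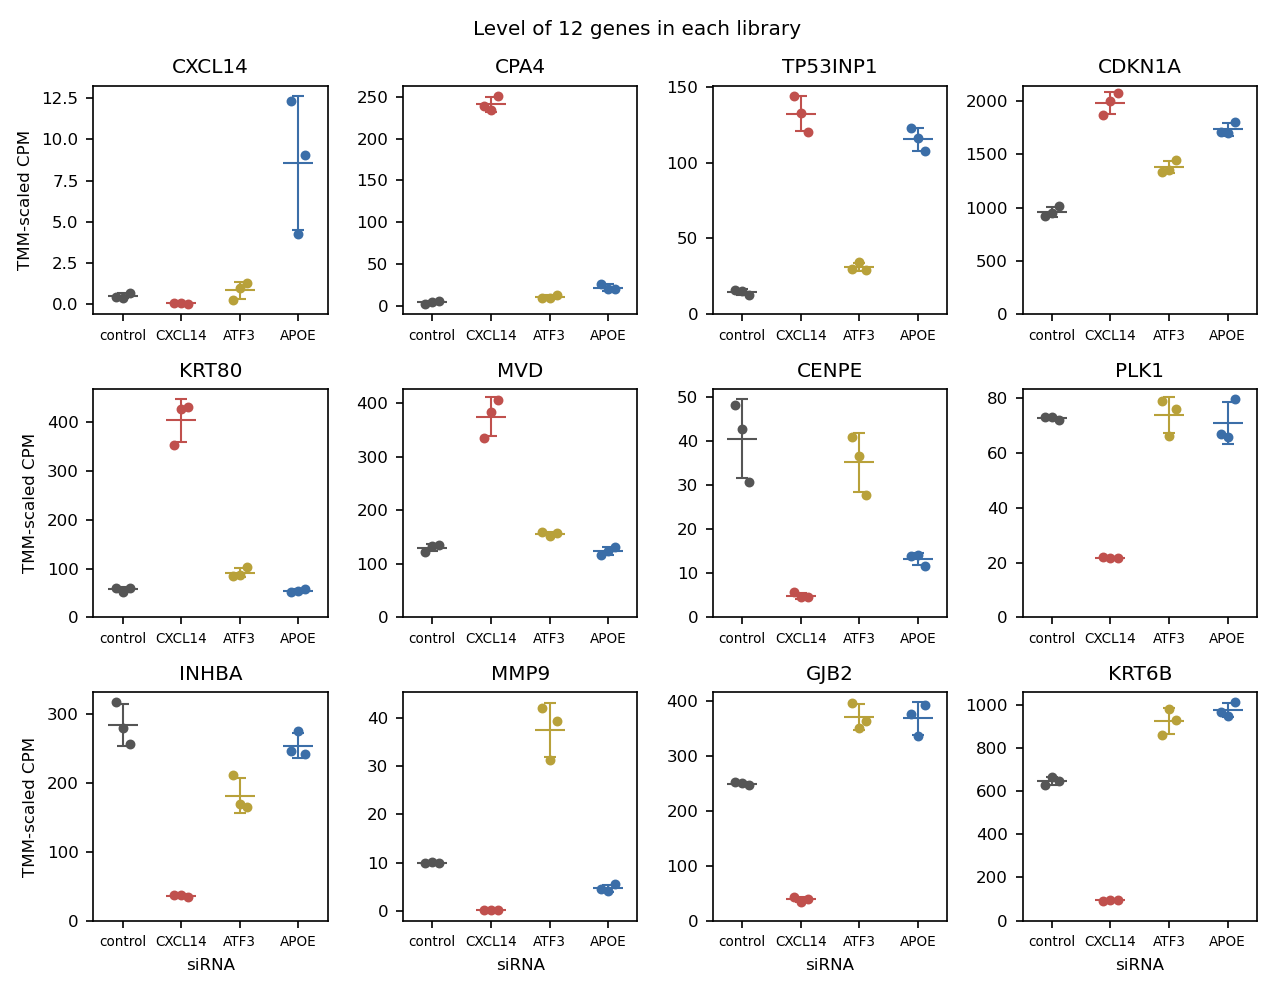
TMM-scaled CPM of 12 genes in the 12 libraries, by siRNA, with a point per library, a line at the mean and an error bar of 1 SD (n = 3 per group). CPA4, TP53INP1, CDKN1A, KRT80 and MVD are higher with CXCL14 siRNA than with control siRNA without overlap, and the other 7 genes are lower without overlap; CXCL14 is highest with APOE siRNA, at a mean of 8.56 CPM.

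A 7-base sequence in the 3′ UTR marked many of the genes that fell. The 3′ UTR of 12603 tested genes was read from GENCODE 29, with 1 transcript per gene, and all 13675 heptamers held by at least 200 genes were ranked by their share among genes at least 2-fold lower against their share among all genes. GAAATGA ranked first, was chosen from this ranking, and is given as a description without a test. It was present in the 3′ UTR of 453 of 1130 genes that fell at least 2-fold (40.1%). It was present in 68 of 620 genes that rose at least 2-fold (11%) and in 2233 of the 12603 genes searched (17.7%). The next heptamer in the ranking, GCGATTT, was found in 3.36% of the genes at least 2-fold lower against 1.91% of all genes. Commoner heptamers stood at ranks 6 and 7, GAATTGA with 17.5% against 10.5% and AAATGAA, which overlaps GAAATGA, with 45.04% against 26.95%. GAAATGA also ranked first by the difference in median log2 fold change between holders and others, at -0.39. By that measure AAATGAA had rank 2 and GAATTGA rank 4, at -0.28 each.

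The coding sequence of CXCL14 held the same 7 bases, as did 17.1% of the coding sequences of the genes searched. The windows below, read from GENCODE 29 transcripts on hg38 with 10 bases on each side and the 7 bases in capitals, show the CXCL14 site, which starts at base 163 of the coding sequence, and the 3′ UTR sites of 4 of the 15 largest falls. ANXA2 was added after its value was seen, as the most abundant holder that fell at least 2-fold. All lie on the minus strand and are written 5′ to 3′ along the messenger RNA.
CXCL14 coding sequence, chr5:135578461-135578487: gaagaagctgGAAATGAagccaaagta
INHBA 3′ UTR, chr7:41687553-41687579: ttcagatgcaGAAATGAaaaaaaaaca
SLC25A24 3′ UTR, chr1:108135049-108135075: aaaaattatgGAAATGAataattttgc
APIP 3′ UTR, chr11:34882501-34882527: agggcacagtGAAATGAaaattttata
CENPE 3′ UTR, first site, chr4:103106161-103106187: tccttatttgGAAATGActttgtttat
CENPE 3′ UTR, second site, chr4:103106056-103106082: aagggaacagGAAATGAatgcattgtg
ANXA2 3′ UTR, chr15:60347423-60347449: gtaagccaaaGAAATGAacattccaag
Outside the capitals the windows share little, except that an A follows the 7 bases in CXCL14, INHBA, SLC25A24, APIP, ANXA2 and the second CENPE site.

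Genes with copies of the 7 bases stood lower than genes without, which the choice of the 7 bases from these same fold changes favours. The median log2 fold change was 0.06 over 10370 genes with 0 copies in the 3′ UTR, -0.30 over 1723 genes with 1 copy, -0.46 over 377 genes with 2 copies and -0.53 over 133 genes with 3 or more. The order of 2 and of 3 or more copies was not the same by every measure: 63.9% and 60.9% of these genes fell, and their medians against ATF3 siRNA were -0.44 and -0.38. Of genes with at least 1 copy, 1202 of 2233 fell (53.8%) and 328 rose (14.7%), against 2716 of 10370 without a copy that fell (26.2%) and 3297 that rose (31.8%). Where an A followed the 7 bases, the median was -0.49 over 968 genes, and where none did, -0.24 over 1265 genes. Genes that held the last 6 bases and the A, but not the first base, had a median of -0.07 over 1872 genes. Genes with the 7 bases only in the coding sequence had a median of -0.22 over 1683 genes, against 0.10 over 8687 genes with none in either place.

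Long 3′ UTRs hold more heptamers of any kind, so the genes were also split into 4 classes of about equal size by 3′ UTR length. In the shortest class (up to 385 bases) the median was -0.42 over 65 holders against 0.09 over 3090 others. In the longest class (2282 bases or more) it was -0.31 over 1351 holders against 0.03 over 1798 others, and holders in the classes between lay at -0.40 each. The medians of genes with at least 1 copy were -0.28 against ATF3 siRNA and -0.27 against APOE siRNA, comparisons that share the CXCL14 siRNA libraries with the one above. Between the other groups and the control the same genes had medians of -0.06 (ATF3 siRNA) and -0.08 (APOE siRNA). The bases complementary to GAAATGA were not bases 2 to 8 of any of 2370 human mature miRNAs in the RefSeq table. Whether the guide strand of this siRNA carries such bases was not tested, since the labels do not give its sequence. The part of miRNAs and of 3′ UTR length in these falls was not tested either.

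**Figure D3:**
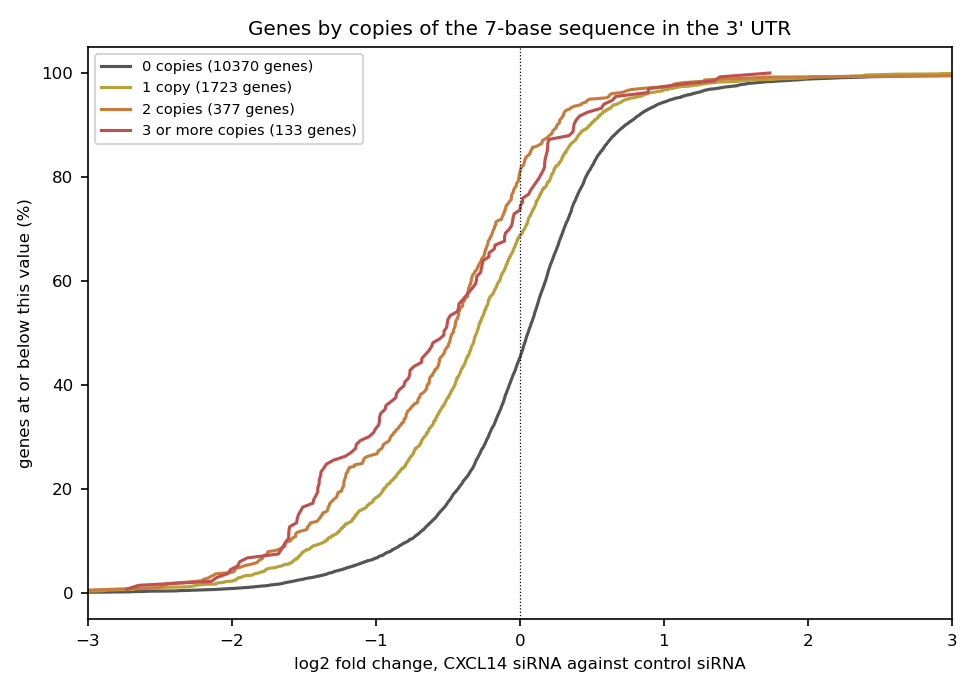
Cumulative share of genes (vertical axis, percent) at or below each log2 fold change (horizontal axis, cut at -3 and 3), by the number of copies of the 7-base sequence in the 3′ UTR. The curves for 1, 2 and 3 or more copies lie to the left of the curve for 0 copies, with medians of -0.30, -0.46 and -0.53 against 0.06.

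The largest effects on single transcripts included both holders and other genes. ANXA2, a membrane-binding annexin, had 2747, 2451 and 2374 CPM with control siRNA and 403, 377 and 399 CPM with CXCL14 siRNA (-2.68 ± 0.07, adjusted p = 4.73e-13). Its processed pseudogene ANXA2P2 had 164, 147 and 137 against 22.3, 21 and 21.7 CPM (-2.78 ± 0.08), and the 2 loci can share reads. CAV1, the main protein of caveolae, held 1 copy and had 883, 825 and 779 CPM with control siRNA and 215, 194 and 224 CPM with CXCL14 siRNA (-1.97 ± 0.08, adjusted p = 1.12e-11). ADAM10, the protease that sheds Notch and cadherins, held 6 copies and had 166, 167 and 154 CPM with control siRNA and 58.2, 53.8 and 45.3 CPM with CXCL14 siRNA (-1.63 ± 0.09, adjusted p = 3.03e-10). MMP9, TFPI2, CSF3, KRT6B, GBP4, CTSS, SH2D2A, HSD11B1, HEPHL1 and IFNK held 0 copies, and 677 of the 1130 genes at least 2-fold lower held none.

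Genes of cell division fell together. For this list and those below, the shares to set beside the counts were 27.4% higher and 28.4% lower over all tested genes. Of 37 tested genes of mitosis, 37 fell, with a median of -1.64 and a range of -3.04 to -0.46. PLK1, the polo-like kinase that drives mitotic entry, had 73, 73 and 72.1 CPM with control siRNA and 21.9, 21.7 and 21.8 CPM with CXCL14 siRNA (-1.74 ± 0.08, adjusted p = 9.95e-11). CDC20, the activator of the anaphase-promoting complex, had 126, 128 and 127 CPM with control siRNA and 31.1, 25.4 and 30.2 CPM with CXCL14 siRNA (-2.14 ± 0.10, adjusted p = 7.85e-11). ECT2, which directs cytokinesis, and AURKB, the kinase of the chromosomal passenger complex, fell by 2.36 and 1.97 on the log2 scale. CENPE, the kinesin of the kinetochore, had 48.2, 42.9 and 30.8 CPM with control siRNA and 5.69, 4.58 and 4.52 CPM with CXCL14 siRNA (-3.04 ± 0.18, adjusted p = 8.37e-10). All of these were lower in each treated library than in each control, and 2 of the 37, CENPE and CDK1, held the 7-base sequence in the 3′ UTR. In bulk RNA, fewer dividing cells and less of these transcripts per cell cannot be told apart.

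Genes of DNA replication fell as well. Of 40 tested members 39 fell and 0 rose, with a median of -1.06. CDC6, which licenses replication origins, had 55.9, 55.9 and 56.7 CPM with control siRNA and 16.9, 15.4 and 15.8 CPM with CXCL14 siRNA (-1.81 ± 0.09, adjusted p = 1.68e-10). RRM2, the regulated subunit of ribonucleotide reductase, had 82.1, 78.9 and 79.9 CPM with control siRNA and 26.4, 22.3 and 23 CPM with CXCL14 siRNA (-1.75 ± 0.07, adjusted p = 2.08e-11), and MCM4, a subunit of the replicative helicase, fell from 164, 164 and 163 to 74.9, 73.4 and 71.4 CPM (-1.16 ± 0.06). The thymidine kinase TK1 fell by 1.54 on the log2 scale. Replication-dependent histone genes, whose main transcripts lack a poly-A tail, did not share these falls: 5 of 12 tested rose and 1 fell, with HIST1H2AC at 20.7, 18.2 and 17.2 against 56.9, 55 and 56.3 CPM (1.58 ± 0.10). The fall, HIST2H2AC, was not called without control replicate 2 and did not pass the filter with only the 2 groups or with the stricter filter, and 2 members fell without control replicate 1.

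CDKN1A, the inhibitor of cyclin-dependent kinases, had 925, 946 and 1013 CPM with control siRNA and 1873, 1997 and 2074 CPM with CXCL14 siRNA (1.04 ± 0.06, adjusted p = 8.6e-10), among the 6 largest rises in CPM of all genes. TP53INP1, a stress-induced nuclear and autophagy protein, had 15.7, 15.5 and 12.6 CPM with control siRNA and 144, 133 and 120.4 CPM with CXCL14 siRNA (3.18 ± 0.10, adjusted p = 1.71e-12). The level of TP53INP1 was 115 CPM with APOE siRNA, where the difference from CXCL14 siRNA, 0.20, was not called. GDF15, a stress cytokine, had 19.3, 24.9 and 29.4 CPM with control siRNA and 115, 131 and 131 CPM with CXCL14 siRNA (2.36 ± 0.13, adjusted p = 4.86e-10).

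Promoters of the mitosis genes carried the elements known from late cell cycle genes. In such promoters the cell cycle genes homology region, CHR, with the core TTTGAA, binds the DREAM and MuvB complexes, and CCAAT boxes upstream bind NF-Y. These motifs were added after the falls were seen and were searched on both strands of RefSeq promoter windows (GRCh38.p14, 250 bases before to 50 after the start). TTTGAA was found for 22 of 31 mitosis genes with a window, against 18.2% of all 27305 genes, and CCAAT for 25 of 31 against 39.7%. For DNA replication genes TTTGAA was found for 2 of 35 and CCAAT for 22 of 35, and the E2F motif TTTCCCGC for 9 of 35, against 1 of 31 mitosis genes and 1.98% of all. The promoters of CCNB2, a mitotic cyclin that was chosen after its value was seen and fell by 1.95 on the log2 scale, and of PLK1 are shown with TTTGAA and CCAAT in capitals on either strand, both from the plus strand.
CCNB2 promoter, chr15:59104896-59105195: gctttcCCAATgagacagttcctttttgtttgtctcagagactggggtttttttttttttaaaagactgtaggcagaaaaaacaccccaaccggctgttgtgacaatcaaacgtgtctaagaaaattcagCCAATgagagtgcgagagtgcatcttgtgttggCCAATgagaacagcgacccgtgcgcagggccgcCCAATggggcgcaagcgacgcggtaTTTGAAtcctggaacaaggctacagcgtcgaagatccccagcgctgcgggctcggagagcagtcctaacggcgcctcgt
PLK1 promoter, chr16:23678639-23678938: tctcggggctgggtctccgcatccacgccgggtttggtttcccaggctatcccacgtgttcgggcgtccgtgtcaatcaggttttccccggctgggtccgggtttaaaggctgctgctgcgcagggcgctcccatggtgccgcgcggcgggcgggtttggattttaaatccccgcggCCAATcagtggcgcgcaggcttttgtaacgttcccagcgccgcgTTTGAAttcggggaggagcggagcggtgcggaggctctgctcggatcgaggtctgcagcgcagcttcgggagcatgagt
CCNB2 holds 4 CCAAT matches upstream of its single TTTGAA, and PLK1 holds 1 of each. A match describes letters, not a bound site.

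For the 15 largest rises and falls, 8 motifs were counted in the same windows, which were found for 14 and 9 of the genes. TATAAA, the TATA box, was found for 5 of 14 rises and 2 of 9 falls, against 14% of all genes. The kappaB motif GGGNNTTCC was found for 3 of 14 rises and 2 of 9 falls (7.95% of all), and the AP-1 motif TGANTCA for 2 and 1 (9.37% of all). The TEAD motif GGAATGT was found for 1 rise and 1 fall (4.25% of all), the E-box CACGTG for 2 and 1 (8.77% of all) and the ISRE motif GAAANNGAA for 2 and 2 (9.86% of all). The CRE motif TGACGTCA was found for 0 and 1 (2.25% of all) and the CARE motif TGATGNAAT for 0 and 0 (1.22% of all). None of these 8 motifs was held by more than 5 genes of either group.

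Most chemokines and interleukin 1 family genes were lower. Of 11 chemokines tested 9 fell, CXCL14 included, with a median of -1.25. CXCL3, a neutrophil chemokine, had 2.30, 4.20 and 3.59 CPM with control siRNA and 0.527, 0.654 and 0.497 CPM with CXCL14 siRNA (-2.58 ± 0.30, adjusted p = 1.71e-06), and CXCL1 of the same family had 12.4, 9.24 and 8.92 against 4.06, 5.39 and 4.84 CPM (-1.10 ± 0.17). CXCL11 and CXCL10, ligands of CXCR3 induced by interferon, fell by 1.82 and 1.37 on the log2 scale, and CCL20, which attracts CCR6 cells, by 1.44. CCL5, chosen after its value was seen, was the only one of the 11 called higher (0.68 ± 0.26), a call lost on both FPKM scales, without control replicate 1 and without CXCL14 siRNA replicate 1 or 3.

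In the interleukin 1 family 10 of 12 tested members fell, with a median of -1.06. IL1B had 216, 169 and 155 CPM with control siRNA and 61.2, 59.3 and 59.2 CPM with CXCL14 siRNA (-1.59 ± 0.11, adjusted p = 4.77e-09) and IL1A had 184, 172 and 159 CPM with control siRNA and 100.2, 90.7 and 96 CPM with CXCL14 siRNA (-0.84 ± 0.09, adjusted p = 5.71e-07). The receptor chains IL1R1 and IL1RAP fell by 1.76 and 0.96 (log2). IL18, stored as a precursor in keratinocytes, rose instead, from 37.5, 34.8 and 32.7 to 78.5, 71.8 and 78.2 CPM (1.12 ± 0.12, adjusted p = 5.3e-07). Ligands and receptors were thus both among the falls.

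Of 16 further cytokines and growth factors 8 fell and 6 rose, or 3 with the stricter filter, with a median of -0.58. CSF3 had 136, 129 and 118 CPM with control siRNA and 12.8, 14.1 and 13.9 CPM with CXCL14 siRNA (-3.23 ± 0.13, adjusted p = 1.12e-11), TNF had 12.3, 9.36 and 7.19 CPM with control siRNA and 1.53, 3.32 and 3.53 CPM with CXCL14 siRNA (-1.77 ± 0.26, adjusted p = 2.27e-05), and IL32 fell by 1.16 on the log2 scale. TNFSF15, a TNF family ligand, rose from 4.84, 4.01 and 4.59 to 10.4, 10.6 and 10.5 CPM (1.23 ± 0.14). IL6, outside the rule and chosen after its value was seen, rose from 0.242, 0.486 and 0.186 to 2.37, 1.63 and 1.81 CPM (2.64 ± 0.51). Of 19 NF-kB subunits and feedback genes 14 fell, with a median of -0.60. The precursor NFKB1 had 147, 132 and 152 CPM with control siRNA and 61.4, 62.5 and 72.7 CPM with CXCL14 siRNA (-1.13 ± 0.10, adjusted p = 6.97e-08), the inhibitor NFKBIA 132, 123 and 123 against 69.2, 65.9 and 68.3 CPM (-0.89 ± 0.07), and the deubiquitinase TNFAIP3 202, 169.9 and 164 against 92.2, 100.4 and 96.3 CPM (-0.89 ± 0.10). RELA, NFKBIB and TNFAIP2, chosen after their values were seen, rose by 0.17, 0.39 and 0.62, a count of 3 that was 1 without control replicate 1 and without CXCL14 siRNA replicates 2 or 3.

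Antimicrobial proteins and alarmins showed 9 falls and 1 rise among 13 tested, with a median of -0.85. The calprotectin subunit S100A9 had 100.5, 93.8 and 94.4 CPM with control siRNA and 56.7, 43.7 and 50.7 CPM with CXCL14 siRNA (-0.93 ± 0.09, adjusted p = 2.15e-07), and SLPI, an antiprotease, fell by 0.79 on the log2 scale. RNASE7, an antimicrobial ribonuclease, rose from 53.2, 49.1 and 50.6 to 79.5, 81.3 and 77 CPM (0.64 ± 0.07). The nuclear alarmins HMGB1 and HMGB2 fell by 1.33 and 1.47. Metallothioneins and zinc transporters fell in 8 of 10 tested, among them MT2A at 1530.1, 1581 and 1616 against 544, 510.4 and 609 CPM (-1.51 ± 0.10).

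Interferon-stimulated genes did not move one way. Of 40 tested 13 rose and 8 fell, against 27.4% and 28.4% of all tested genes, with a median of 0.03. IFIT1, which binds foreign RNA, had 318, 456 and 493 CPM with control siRNA and 823, 725 and 772 CPM with CXCL14 siRNA (0.87 ± 0.12, adjusted p = 1.33e-05), and GBP1 rose from 56.4, 67.1 and 70.7 to 155, 145 and 147 CPM (1.20 ± 0.09). IFI44L and SAMD9L fell by 0.90 and 0.95 on the log2 scale. Summed over the list, the level ran from 10300 to 17100 CPM in the control libraries, with control replicate 1 lowest for IFIT1 and GBP1, and from 16800 to 17400 CPM with CXCL14 siRNA. Without control replicate 1 the falls numbered 14 and the median was -0.14. Of 15 genes of RNA sensing and interferon induction 5 rose and 5 fell, with TLR3 at 0.72 ± 0.10 and IFNK at -2.84 ± 0.16.

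Genes of the basal keratinocyte and of its anchorage to the basement membrane were mostly lower. Of 21 tested 14 fell, 1 rose and 6 were not called, with a median of -0.53. The rise, BCAM (1.29 ± 0.13), was chosen after its value was seen. The rises numbered 2 with library size alone and without CXCL14 siRNA replicate 3. KRT14, the basal keratin, had 6646, 7437 and 7809 CPM with control siRNA and 3501, 3455 and 3767 CPM with CXCL14 siRNA (-1.03 ± 0.07, adjusted p = 3.81e-09), the largest loss in CPM of any gene. Its partner KRT5 had 10806, 12037 and 12444 CPM with control siRNA and 8703, 8826 and 9152 CPM with CXCL14 siRNA (-0.40 ± 0.06, adjusted p = 6.16e-05). TP63, the transcription factor that maintains stratified epithelium, had 335, 341 and 359 CPM with control siRNA and 175, 155 and 155 CPM with CXCL14 siRNA (-1.09 ± 0.06, adjusted p = 6.13e-10). LAMA3, a laminin chain of the epidermal basement membrane, had 3232, 2930.2 and 2764 against 1508, 1585 and 1554 CPM (-0.94 ± 0.07).

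Keratins split within families. Of 10 stress and wound keratins tested 4 fell, 2 rose and 4 were not called, with a median of -0.39. KRT17 (-0.08), chosen after its value was seen, was not called. The rises numbered 1 with limma-voom, without CXCL14 siRNA replicate 1 and without control replicate 1 or 2. The stress keratins KRT6A, KRT6B, KRT6C and KRT16 fell, with log2 fold changes of -0.91, -2.77, -1.49 and -1.01, and KRT6A and KRT6C are close in sequence to KRT6B, so that reads could be assigned among them. KRT80, a keratin of desmosome-associated filaments, rose from 59.7, 52.4 and 59.5 to 354, 427 and 433 CPM (2.82 ± 0.10, adjusted p = 3.54e-12). Of 6 keratins of simple epithelium and hair tested 4 rose and 0 fell, or 1 without CXCL14 siRNA replicate 3, and the rises included KRT8 at 513, 539 and 541 against 648, 749 and 785 CPM (0.45 ± 0.08) and KRT81 at 324, 349.9 and 379 against 647, 762 and 818 CPM (1.08 ± 0.09). KRT18 (-0.15) and KRT7 (-0.22) were not called.

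Differentiation genes rose and fell at shares near those of all tested genes, 27.4% higher and 28.4% lower. Of 25 spinous genes tested 6 rose and 6 fell, and of 23 cornified envelope genes 6 rose and 6 fell, with medians of 0.02 and 0.01 whose sign changed under 4 and 7 alternatives. The cornified envelope genes that rose numbered 3 without control replicate 2 and with the stricter filter. IVL, a precursor of the cornified envelope, had 21.6, 25.5 and 27.8 CPM with control siRNA and 12.7, 11.4 and 11.3 CPM with CXCL14 siRNA (-1.08 ± 0.12, adjusted p = 1.58e-06), and SPRR2D fell by 1.29 (log2). The transcription factor GRHL3 rose from 22.1, 18.7 and 19.8 to 36.7, 41.1 and 37 CPM (0.92 ± 0.08). DSC3, a desmosomal cadherin, held 2 copies of the 7-base sequence and had 297, 283 and 281 CPM with control siRNA and 90.7, 84.8 and 75.4 CPM with CXCL14 siRNA (-1.78 ± 0.08, adjusted p = 6.07e-11).

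Junction genes moved in both directions. Of 23 tested 11 fell and 7 rose, with a median of -0.44. All 4 members with the 7-base sequence in the 3′ UTR, among them GJA1, CTNNA1 and F11R, fell (median -1.73). Of the 19 without it 7 rose and 7 fell (median -0.05). The 7 bases were chosen from these same fold changes, which favours such a gap, and not every list showed it. Among chemokines the medians were -0.99 over 4 holders and -1.37 over 7 others. The connexins GJB2 and GJA1 had 251, 249.6 and 247 against 42.8, 34 and 38.5 CPM (-2.70 ± 0.09) and 199, 209 and 209 against 65.4, 58.6 and 58.2 CPM (-1.76 ± 0.07), and all 6 tested connexins of the list fell. CTNNA1, alpha-catenin, had 472, 437 and 446 CPM with control siRNA and 141, 133 and 143 CPM with CXCL14 siRNA (-1.70 ± 0.07, adjusted p = 1.11e-11), and F11R, the junctional adhesion molecule A, had 151, 142 and 139.5 CPM with control siRNA and 37.3, 31.8 and 37 CPM with CXCL14 siRNA (-2.03 ± 0.08, adjusted p = 7.73e-12). CLDN1, a claudin of the epidermal barrier, rose from 60.0, 58.5 and 58.6 to 182, 180.3 and 191 CPM (1.64 ± 0.08, adjusted p = 6.74e-11).

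Among 33 genes of matrix and wound edge 14 fell and 8 rose. PLAU, the urokinase, had 459, 347 and 333 CPM with control siRNA and 60.2, 55.7 and 61.9 CPM with CXCL14 siRNA (-2.68 ± 0.11, adjusted p = 1.59e-11), and its receptor PLAUR fell by 1.20 (log2). Of 25 tested genes, YAP and TEAD factors together with their targets, 15 rose and 4 fell. The rises included the matricellular gene CYR61 (CCN1) at 252, 249 and 240.2 against 688, 762 and 817 CPM (1.61 ± 0.08, adjusted p = 1.54e-10) and CRIM1 at 1.14 ± 0.06. NT5E and the co-activator WWTR1 fell by 1.87 and 1.16 on the log2 scale. The co-activator YAP1, chosen after its value was seen, also fell (-0.58 ± 0.09). TAGLN, an actin-binding protein of contractile cells, had 43.2, 39.4 and 35.6 CPM with control siRNA and 186, 217 and 223 CPM with CXCL14 siRNA (2.41 ± 0.09, adjusted p = 6.97e-12). CDH2, the N-cadherin, reached 2.64, 3.38 and 2.44 CPM from 0.0605, 0.0608 and 0.186 CPM (4.70 ± 0.51).

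Of 25 TGF-beta and activin genes 6 rose and 9 fell, against 27.4% and 28.4% of all tested genes. ID1 had 44, 48.6 and 57.5 CPM with control siRNA and 12.5, 9.70 and 10.2 CPM with CXCL14 siRNA (-2.21 ± 0.15, adjusted p = 3.99e-09), while its relative ID3 had 40.6, 41.1 and 48 CPM with control siRNA and 155, 153 and 167 CPM with CXCL14 siRNA (1.87 ± 0.08, adjusted p = 1.7e-11). The 2 inhibitors of DNA binding thus moved apart. Of 14 EGF receptor ligands and receptors 7 fell, among them HBEGF at 50.2, 43.2 and 42.6 against 13.8, 13.8 and 15.1 CPM (-1.67 ± 0.09) and EREG at -1.19 ± 0.09.

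Cholesterol synthesis and lysosome genes were mostly higher. Of 27 genes of cholesterol synthesis and SREBP2 targets 19 rose and 3 fell, with a median of 0.47. MVD, the mevalonate diphosphate decarboxylase, had 122, 133 and 136 CPM with control siRNA and 334, 384 and 406 CPM with CXCL14 siRNA (1.52 ± 0.08, adjusted p = 1.17e-10), and DHCR7 rose by 1.26. SQLE, the squalene epoxidase, fell from 382, 375 and 364 to 136, 125 and 129 CPM (-1.53 ± 0.06, adjusted p = 1.53e-11). Of 7 members with the 7-base sequence in the 3′ UTR, SQLE among them, 2 rose and 3 fell. Of the 20 without it 17 rose and 0 fell. The choice of the 7 bases from these same fold changes favours this split as well.

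Of 32 lysosome and autophagy genes 24 rose and 3 fell, with a median of 0.46. CTSD, cathepsin D, had 161, 162 and 174 CPM with control siRNA and 367, 380.2 and 431 CPM with CXCL14 siRNA (1.24 ± 0.09, adjusted p = 1.1e-08), and GABARAPL1, an ATG8 protein of autophagosomes, had 21.4, 20.1 and 22.1 CPM with control siRNA and 76.8, 70.7 and 72.2 CPM with CXCL14 siRNA (1.79 ± 0.07, adjusted p = 1.11e-11). PSAP, the saposin precursor, rose by 0.63, and CTSS, at -3.22, was one of the 3 falls. Of 20 LXR and apolipoprotein genes 12 rose and 6 fell, with LIPA, the lysosomal acid lipase, at 94.1, 94.7 and 87.5 against 179, 175 and 175 CPM (0.93 ± 0.06). Of 31 genes of fatty acid metabolism 12 rose and 9 fell, against 27.4% and 28.4% of all tested genes, with a median of 0.09. Among them ACLY, which makes cytosolic acetyl-CoA, had 243, 238 and 249.9 CPM with control siRNA and 701, 738 and 736 CPM with CXCL14 siRNA (1.57 ± 0.06, adjusted p = 1.11e-11), and its level was 717 CPM with ATF3 siRNA and 761 CPM with APOE siRNA.

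Most ribosomal protein genes rose by small amounts. Of 62 cytosolic ribosomal protein genes 51 rose and 2 fell, with a median of 0.36, and RPS18 had 765, 819 and 798 CPM with control siRNA and 1252, 1172 and 1222 CPM with CXCL14 siRNA (0.61 ± 0.06, adjusted p = 3.4e-07). RPS7 stood apart at 336, 325 and 322 against 129, 128 and 139 CPM (-1.31 ± 0.06, adjusted p = 5.65e-11). The other fall, RPS12 (-0.20 ± 0.06), was chosen after its value was seen, and the list had 1 fall without CXCL14 siRNA replicate 2 and with library size alone. The elongation factors EEF1A1 and EEF2 had 7505, 6891 and 6771 against 8446, 8352 and 8893 CPM (0.28 ± 0.06) and 3071, 3147 and 3284 against 4286, 4568 and 4727 CPM (0.52 ± 0.06), the largest gains in CPM. Of 44 nuclear-encoded genes of oxidative phosphorylation 26 rose and 4 fell (median 0.26). Of 13 mitochondrially encoded genes 2 rose and 3 fell. The falls numbered 1 without control replicate 1 and with library size alone, 5 with only the 2 groups, 6 without control replicate 3 and with the replicate block, and 8 without a filter. The rises numbered 1 without control replicate 2 or 3 and without CXCL14 siRNA replicate 2 or 3.

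Stress pathways differed from each other. Of 40 genes of the integrated stress response 22 rose and 7 fell, with a median of 0.18. NUPR1, a stress-induced chromatin protein, had 8.70, 10.7 and 11.8 CPM with control siRNA and 90.3, 85 and 91.5 CPM with CXCL14 siRNA (3.09 ± 0.10, adjusted p = 3.15e-12), and STC2 had 59.6, 59.6 and 59.6 against 137, 154 and 146 CPM (1.29 ± 0.08). CHAC1, which degrades glutathione, rose by 0.95. In the unfolded protein response 13 of 24 fell and 4 rose, with the chaperone HSPA5 at 986, 965 and 949.9 against 596, 600.2 and 628 CPM (-0.67 ± 0.06). All 7 members with the 7-base sequence in the 3′ UTR, HSPA5 among them, fell (median -0.83). Of the 17 without it 4 rose and 6 fell (median 0.04). Here too the 7 bases had been chosen from these same fold changes, so the split is a description only.

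The remaining lists moved in both directions or little. Over all tested genes 27.4% rose and 28.4% fell. Of 33 Wnt pathway genes 7 rose and 12 fell, and of 18 Notch pathway genes 3 rose, 1 without control replicate 1, and 8 fell. Of 34 hypoxia and glycolysis genes 12 rose and 6 fell, and of 26 NRF2 targets 8 rose and 7 fell, a count of rises that was 5 without CXCL14 siRNA replicate 3. Of 20 heat shock genes 6 rose and 7 fell. Of 22 ERK feedback genes 5 rose and 7 fell, and of 22 AP-1 and immediate early genes 6 rose and 6 fell. Of 19 genes of class I antigen presentation 4 rose and 9 fell, and the rises numbered 1 without control replicate 1 and 2 without control replicate 2 or CXCL14 siRNA replicates 2 or 3. Of 16 genes of the RNA interference machinery 3 rose and 5 fell, and of 13 prostaglandin genes 4 rose and 6 fell, or 3 with the stricter filter. Of 15 mesenchymal transition genes 5 rose, or 3 with the stricter filter and on both FPKM scales, and 3 fell. The 3 chemokine receptor genes tested, GPR85, ACKR3 and CXCR6, had adjusted p = 0.893, 0.519 and 0.359 in edgeR's test.

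**Figure D4:**
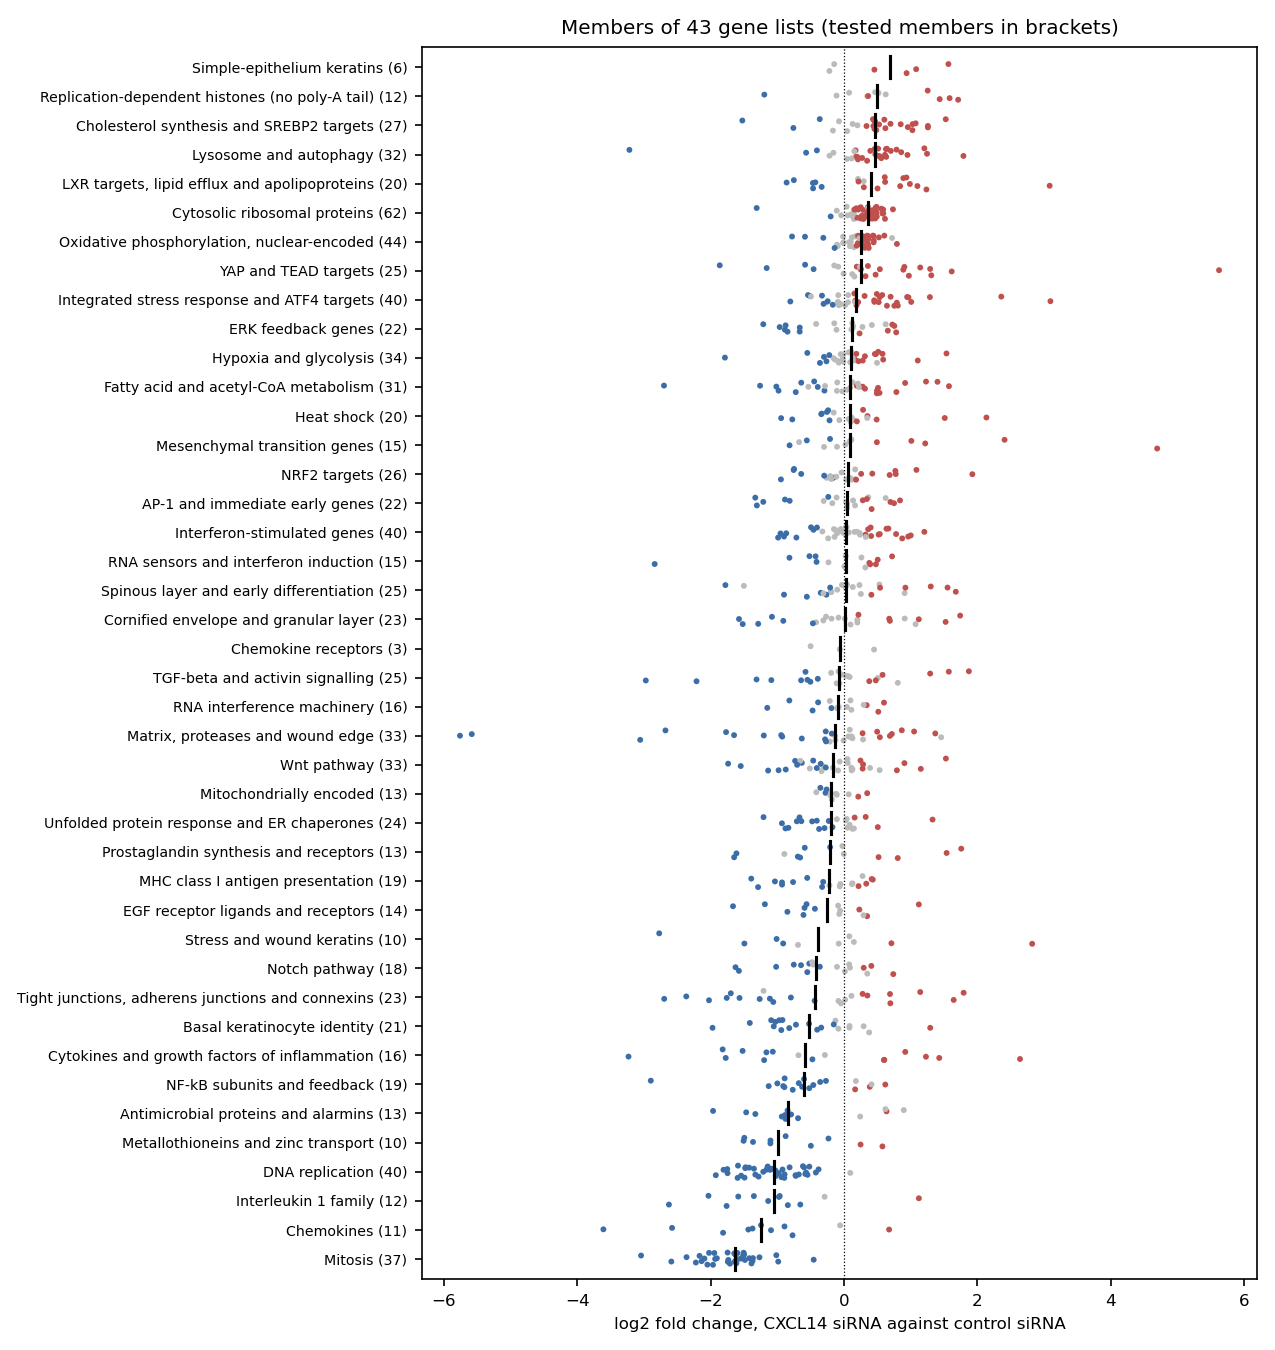
Log2 fold change (horizontal axis) of each tested member of 42 gene lists, with a bar at the list's median, red for called higher, blue for called lower and grey for not called. Mitosis genes lie at a median of -1.64 with all 37 called lower, and lysosome and cholesterol genes lie at medians of 0.46 and 0.47.

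The abundant transcripts MYH9 and PLEC, of the actin cytoskeleton and the hemidesmosome, also lost counts. MYH9, the heavy chain of non-muscle myosin, had 4299, 4176 and 4092 CPM with control siRNA and 1139, 1179 and 1174 CPM with CXCL14 siRNA (-1.85 ± 0.07, adjusted p = 8.51e-12), and PLEC, the linker plectin, had 5202, 5609 and 5486 CPM with control siRNA and 2864, 3245 and 2668 CPM with CXCL14 siRNA (-0.89 ± 0.09, adjusted p = 2.23e-07). Gains in CPM came from IFI6, an interferon-induced mitochondrial protein, at 1338, 2159.5 and 2636 against 3084, 3254 and 3386 CPM (0.66 ± 0.16), from the ferritin heavy chain FTH1 at 1705, 1624 and 1682 against 2418, 2709 and 2921 CPM (0.68 ± 0.12), and from the heparan sulphate proteoglycan AGRN at 1739, 2048 and 2204 against 2852, 3136 and 2942 CPM (0.58 ± 0.09). The control libraries of IFI6 ran wide, and control replicate 1 was the lowest there too. Among transcripts that are not protein-coding, MANCR, a lincRNA, had 6.17, 4.50 and 5.64 CPM with control siRNA and 0.738, 0.490 and 0.452 CPM with CXCL14 siRNA (-3.27 ± 0.23, adjusted p = 5.91e-09), and ANKRD19P, a transcribed pseudogene, had 0.242, 0.426 and 0.124 CPM with control siRNA and 3.01, 2.34 and 2.71 CPM with CXCL14 siRNA (3.31 ± 0.46, adjusted p = 1.4e-05).

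Set directly against the other siRNAs, the CXCL14 siRNA libraries differed about as widely. Against ATF3 siRNA 3769 genes were higher (25.3%) and 4239 lower (28.4%), and against APOE siRNA 3974 were higher (26.6%) and 4308 lower (28.9%). These comparisons share the CXCL14 siRNA libraries with each other and with the comparison above, and are given side by side only. Mitosis genes were lower in 37 of 37 against ATF3 siRNA and in 36 of 37 against APOE siRNA. ID1 was at -3.03 and -2.96 and KRT6B at -3.29 and -3.37, and CPA4 was higher by 4.56 and 3.46. Other groups differed by comparison: 51 ribosomal protein genes rose against the control, 21 against ATF3 siRNA and 3 against APOE siRNA, where 13 were lower. Of 11 chemokines 10 were lower against ATF3 siRNA, and 3 were lower and 2 higher against APOE siRNA. Of 19 NF-kB genes 14 were lower against ATF3 siRNA, and 6 were lower and 3 higher against APOE siRNA. TP53INP1 and NUPR1 were higher than with ATF3 siRNA by 2.09 and 1.88, and stood at 0.20, not called, and 0.27, called, against APOE siRNA.

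Markers of immune, endothelial, melanocyte and fibroblast cells summed to low levels in both groups. The 8 immune markers summed to 2.11 to 3.28 CPM with control siRNA and 0.98 to 1.47 CPM with CXCL14 siRNA, and the 5 endothelial markers to 0.304 to 0.619 and 1.37 to 1.58 CPM. The 7 melanocyte markers summed to 3.38 to 4.19 and 6.59 to 6.75 CPM, of which 3 were tested, and MITF rose from 2.18, 1.95 and 1.67 to 4.38, 4.58 and 4.43 CPM (1.20 ± 0.20). Of the 8 fibroblast markers, which summed to 25.4 to 34.2 and 14.6 to 17.9 CPM, COL1A1 made up most and was lower (-0.92 ± 0.13). The 6 markers of simple epithelium and sweat gland summed to 795 to 824 and 878 to 1070 CPM, most of it from KRT8, which rose. PTPRC, CD3E, LYZ, CD207, CD1A, CDH5, TEK and TYR had 0 counts in all 6 libraries. The part of these low transcripts in the results was not tested.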

How the data were processed

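Poly-A selected RNA of 12 libraries was sequenced, and the 6 with CXCL14 or control siRNA are reported here. The authors deposited raw counts per gene and FPKM per gene and library; per the submitters' processing notes the tools were HISAT2 2.0.5 and featureCounts 1.5.0-p3 on hg38. The labels do not give the strand setting, so overlapping antisense genes are uncertain. Library columns were mapped by target prefix and replicate number, and 0 columns were left unmapped. A script checked on simulated data filtered the counts with filterByExpr, scaled them by TMM and fitted all 12 libraries with 1 term per group in edgeR 4.0.16 (R 4.3.3). P-values were adjusted by Benjamini-Hochberg over 14920 genes. The SE is the size of the log2 fold change over the square root of F.

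Named genes are CXCL14, ATF3 and APOE, the 15 largest rises and falls among called protein-coding genes (at least 5 CPM in 1 group, CPM not overlapping), the 6 largest differences in CPM per direction, up to 5 called genes per list by adjusted p, and 4 transcripts per direction that are not protein-coding (at least 2 CPM). The text gives a part of them, and some genes and 1 list are not reported here. The comparison, the members and the 43 gene lists and 6 marker lists were chosen with earlier results of these data known, so lists are described by counts and medians without a set test. Alternatives were DESeq2 1.42.0 size factors and Wald test, scaling by library size, testing without a filter, a filter asking for 1 CPM in at least 3 libraries plus a mean count of 50 (stricter filter), limma-voom (limma 3.58.1), limma on log2(FPKM + 1) and log2(FPKM + 0.1) of the deposited FPKM, only the 2 groups, a replicate block, and each library of a comparison left out in turn. The 3′ UTR analysis used the GENCODE 29 transcript with the longest coding sequence and was added after the data were seen.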

Additional observations from a re-analysis of the deposited data

How the results depend on the processing

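Over all tested genes, the counts of genes higher and lower, and of genes called against ATF3 or APOE siRNA, stayed within 1.5 times their value under the alternatives run. Genes at least 2-fold higher numbered 386 with the stricter filter, 465 with limma on log2(FPKM + 0.1) and 209 on log2(FPKM + 1), against 832, and genes at least 2-fold lower numbered 592 on log2(FPKM + 1), against 1328; the stricter filter tested 11518 genes and the larger pseudocount shrinks low genes. CXCL14 was no longer called with limma-voom (-3.26, adjusted p = 0.0538) or on log2(FPKM + 1) (-0.29, adjusted p = 0.328), and it did not pass the filter, and so was not tested against the control, with only the 2 groups or with the stricter filter. Of 86 counts of list members higher or lower, 19 moved by more than 1.5 times under at least 1 alternative, and 6 of 43 list medians changed sign. The GPR85 log2 fold change, given because no gene of the chemokine receptor list was called, stood at -0.06, not called, at 0.00416 with limma-voom, and between -0.2712 (without control replicate 3) and 0.4086 (without control replicate 1) with a library left out, also positive without CXCL14 siRNA replicate 3 (0.07575). The share of genes at least 2-fold lower that held the 7-base sequence was 43.3% with the stricter filter, 46.3% on log2(FPKM + 1) and 43.8% with the longest 3′ UTR per gene, against 40.1%.

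Leaving out single libraries gave 3592 to 3878 genes higher, 3927 to 4033 lower, 806 to 909 at least 2-fold higher, 1270 to 1392 at least 2-fold lower, 7196 to 7728 called against ATF3 siRNA, 7585 to 7757 against APOE siRNA, -3.99 to -3.03 for CXCL14, 39.6 to 40.7% for the share and -0.43 to -0.37 for the difference in median. The labels do not say whether replicate numbers pair the samples. Same-numbered deviations correlated at 0.0852, -0.00597 and 0.122, and different-numbered ones at -0.143 to 0.0639. With the replicate block 4439 genes were higher and 4531 lower, 847 and 1337 at least 2-fold, 8712 and 8949 were called against ATF3 and APOE siRNA, and CXCL14 stood at -3.63. Beside CXCL14, of 255 other named genes in 4025 combinations with an alternative, 16 lost a call (MT-ND1, MT-ND5, MT-ND6 and HIST2H2AC). Depth limits statements on CXCL14 itself, with 24 control counts.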

Other observations

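Several muscle and heart genes outside the naming rule appeared at low levels with CXCL14 siRNA; they were chosen after their values were seen. ACTA1, the skeletal muscle actin, averaged 3.72 CPM with CXCL14 siRNA and had 0 counts in all 3 control libraries, 0.104 CPM with ATF3 siRNA and 0.171 CPM with APOE siRNA. NPPB, the natriuretic peptide B, averaged 3.96 CPM, with 1 count over the 3 control libraries. ANKRD1, a cardiac ankyrin repeat protein and target of YAP, averaged 1.33 CPM, also with 1 count over the controls. MMP10, a stromelysin, was the largest fall of all tested genes, at 2.84, 2.31 and 1.43 CPM with control siRNA and 0.0527, 0.0545 and 0 CPM with CXCL14 siRNA.

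Among genes with 3 or more copies of the 7-base sequence, also chosen after their values were seen, the metallocarboxypeptidase CPD (3 copies) had 134, 119.9 and 117 CPM with control siRNA and 19.9, 19.9 and 16.1 CPM with CXCL14 siRNA (-2.73 ± 0.09, adjusted p = 2.9e-12). GPD2, the mitochondrial glycerol-3-phosphate dehydrogenase (3 copies), had 127, 122 and 112 against 32.4, 24.6 and 24.9 CPM (-2.14 ± 0.10), and TET3, a methylcytosine dioxygenase (4 copies), had 122, 111 and 107 against 30.1, 31.3 and 23.3 CPM (-2.01 ± 0.13). These are strong falls within the class. Of its 133 genes 81 fell, 42 of them at least 2-fold, and 15 rose. SMAD2, with 7 copies and likewise chosen after its value was seen, rose (0.38 ± 0.07).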
